A study of Homo sapiens with 12 samples.

Results

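GBP1, GBP2, GBP3, GBP4 and GBP5 encode guanylate binding proteins, and their transcripts were counted by RNA sequencing in the human fibrosarcoma line HT1080. The genes were picked by symbol as a gene family and make up 5 of the 19293 genes in the count table. All 5 passed the filter on low counts and are among the 12160 genes tested. The labels place 12 libraries in 4 groups of 3: cells given IFNγ (10 ng/ml) together with irradiation (20 Gy), cells given IFNγ alone, irradiated cells, and untreated cells. Harvest was 24 h after treatment. The labels do not say whether the 3 libraries of a group came from separate cultures, so each p-value here covers library-to-library spread, part or all of which may be technical.

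Guanylate binding proteins are large GTPases of the dynamin superfamily. IFNγ, the type II interferon, induces them, in part through the transcription factor IRF1. GBP1 assembles on the lipopolysaccharide of bacteria that enter the cytosol and recruits GBP2, GBP3 and GBP4, and this coat serves as a platform for caspase-4, which cleaves gasdermin D. GBP1, GBP2 and GBP5 end in a motif to which a farnesyl or geranylgeranyl lipid is attached, and GBP2 and GBP5 restrain the protease furin, which viruses use to mature their envelope proteins. The 5 genes lie in 1 cluster on the minus strand of chromosome 1, which GENCODE 29 (GRCh38) places at chr1:89006666-89022894 for GBP3, chr1:89052319-89065360 for GBP1, chr1:89106132-89150456 for GBP2, chr1:89181148-89198932 for GBP4 and chr1:89258950-89272804 for GBP5.

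Total counts per library ran from 9675126 to 11010656. Levels are given as CPM, which are counts brought to 1 common library size by TMM (trimmed mean of M-values) scaling. The 6 mesenchymal markers, among them VIM and FN1, summed to between 9000 and 10280 CPM in each library. PDGFRB, another of them, averaged only 3.67 CPM in IFNγ cells and 6.53 CPM in combination cells. With IFNγ 5 of the 6 were called lower and 1 higher, against 14.1% and 15.0% of all tested genes. EPCAM and CDH1, which define epithelial cells, had at most 2 counts in any library. KRT8 and KRT18, the other epithelial genes listed, brought that list to between 382.2 and 585.2 CPM, and both were called higher with IFNγ (0.47 and 0.30 on the log2 scale). Their part in the results was not tested. Immune cell markers had 2 to 10 counts per library over 5 genes, apart from irradiated replicate 2. That library held 38, of which 23 were PTPRC, 7 CD14 and 7 ITGAM, and results of GBP4 and GBP5 that involve irradiated cells are read beside that library.

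Start-site sequences were available for 3 of the 5 members, from RefSeq on GRCh38.p14. They are shown because all 3 carry a match to the core that interferon-regulated factors bind. Each window runs from 170 bases before the annotated start to 25 bases after it, read 5′ to 3′ on the minus strand, and capitals mark the motif matches. GBP1 lies at chr1:89065184-89065378, GBP3 at chr1:89022842-89023036 and GBP4 at chr1:89198918-89199112.
GBP1: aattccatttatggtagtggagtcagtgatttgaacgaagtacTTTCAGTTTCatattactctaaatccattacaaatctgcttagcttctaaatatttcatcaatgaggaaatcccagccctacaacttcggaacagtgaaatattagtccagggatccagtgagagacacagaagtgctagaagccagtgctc
GBP3: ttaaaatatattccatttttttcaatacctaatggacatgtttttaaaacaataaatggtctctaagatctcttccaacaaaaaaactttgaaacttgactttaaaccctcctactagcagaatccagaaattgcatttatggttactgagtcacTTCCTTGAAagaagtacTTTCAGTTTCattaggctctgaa
GBP4: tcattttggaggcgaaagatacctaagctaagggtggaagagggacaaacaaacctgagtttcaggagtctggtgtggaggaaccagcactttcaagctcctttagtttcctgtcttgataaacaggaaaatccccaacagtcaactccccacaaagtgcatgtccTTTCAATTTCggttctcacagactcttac

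The first motif searched was GAAA, any 2 bases, then GAAA again, the repeat at the core of the interferon-stimulated response element. Both strands were searched, and the match reads TTTC, 2 bases, TTTC on the opposite strand. It occurred in 3.57% of 35116 RefSeq start-site windows of 300 bases. In GBP1 it began 127 bases before the start, in GBP4 it began 4 bases before the start, and in GBP3 it began 2 bases after the first transcribed base. These positions count from the RefSeq starts, which differ from the GENCODE ones. The GENCODE spans of GBP1 and GBP3 reach further upstream and take in every match marked in their windows. That of GBP4 begins downstream of its match. The 10 matched letters were the same in GBP1 and GBP3, tttcagtttc, and GBP4 had tttcaatttc. The second motif was TTCNNNGAA, the gamma-activated sequence found at many IFNγ-induced genes, which reads the same on both strands. It occurred in 7.66% of windows. Among these 3 it occurred in the GBP3 window, 15 bases before the RefSeq start, with no overlap with the first motif. A match describes letters, not a bound site. Only these exact letters were searched, so the lack of a match does not show that a window holds no such site. The windows of GBP6 and GBP7, the other family members, held neither motif.

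GBP1, the member that starts the coat on bacteria, had 900.8, 957.9 and 1084 CPM in combination libraries, 1311, 1103 and 1156 CPM in IFNγ libraries, 29.6, 32.7 and 25.4 CPM in irradiated libraries, and 25.2, 26.5 and 22.8 CPM in untreated libraries. The libraries with IFNγ lay far above those without it, all 3 combination libraries lay below all 3 IFNγ libraries, and the irradiated and untreated libraries overlapped. GBP2, which joins the coat and restrains furin, had 444.3, 470.5 and 514.3 CPM in combination libraries, 343.6, 308.3 and 327.7 CPM in IFNγ libraries, 10.1, 10.6 and 11.96 CPM in irradiated libraries, and 6.85, 7.25 and 6.29 CPM in untreated libraries. For GBP2 the 4 groups did not overlap, and each irradiated group lay above the group with the same cytokine and no radiation.

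GBP3, which is recruited to the GBP1 coat, had 225.4, 213.8 and 234.8 CPM in combination libraries, 229.6, 226.1 and 230.0 CPM in IFNγ libraries, 33.1, 37.8 and 35.0 CPM in irradiated libraries, and 31.2, 32.9 and 36.9 CPM in untreated libraries. Its irradiated and unirradiated libraries overlapped both with and without IFNγ. GBP4, also recruited to the coat, had 79.6, 84.8 and 108.5 CPM in combination libraries and 115.8, 96.1 and 91.0 CPM in IFNγ libraries. Its raw counts were 5, 7 and 0 in irradiated libraries and 1, 4 and 2 in untreated libraries. GBP4 was thus near silent in all 6 libraries without IFNγ.

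GBP5, which promotes assembly of the NLRP3 inflammasome and restrains furin, had 672.5, 726.4 and 947.1 CPM in combination libraries and 1080, 824.9 and 809.4 CPM in IFNγ libraries. Its raw counts were 10, 59 and 3 in irradiated libraries and 2, 6 and 13 in untreated libraries. The 2 groups with IFNγ overlapped each other, and so did the 2 groups without it.

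**Figure D1:**
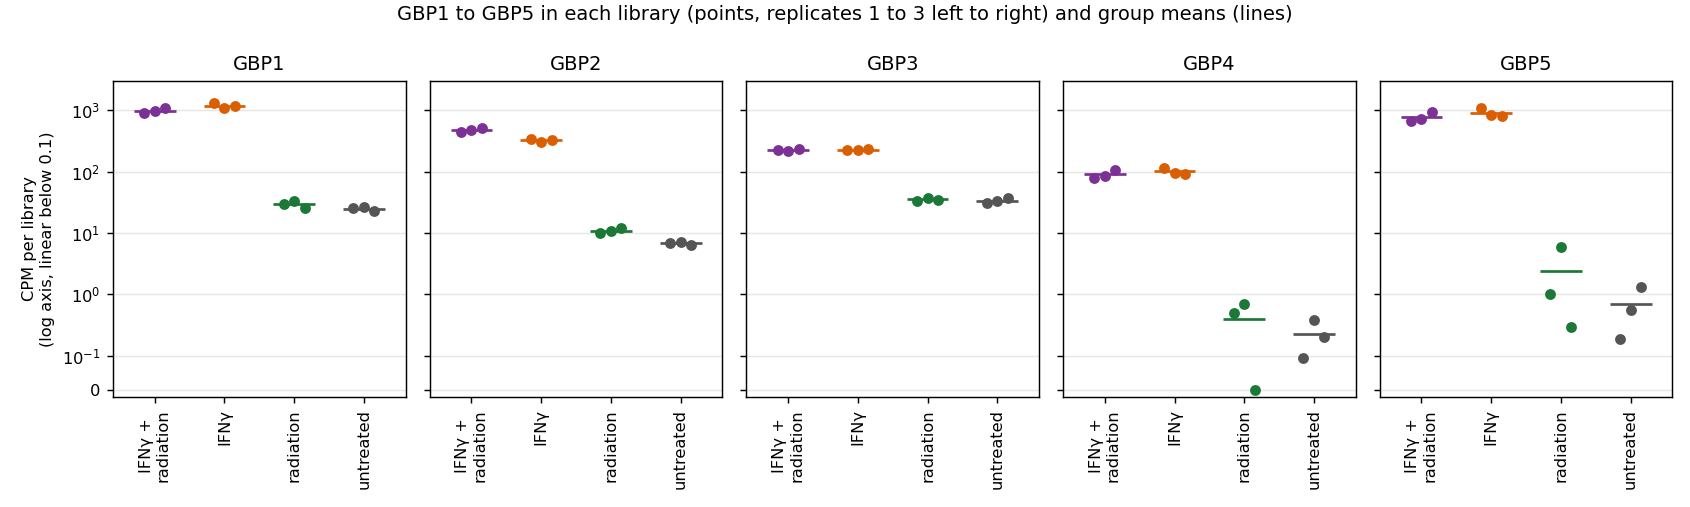
CPM of each member (1 panel per gene, log axis that is linear below 0.1) in the 3 libraries of each group, with lines at group means. All 5 genes are far higher in the 6 libraries with IFNγ, GBP2 is also higher in each irradiated group than in its unirradiated counterpart, and GBP5 in irradiated replicate 2, at 5.93 CPM, stands above the other libraries without IFNγ.

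The response to the cytokine by itself was read from IFNγ against untreated cells. All 5 members rose, against 15.0% of all tested genes called higher (14.1% were called lower), and in all 5 the libraries of the groups did not overlap, against 19.8% of genes that were higher without overlap. GBP5 averaged 905 ± 152 CPM in IFNγ cells and 0.691 ± 0.576 CPM in untreated cells (SD, n = 3 each), a log2 fold change of 10.36 ± 1.69 (SE) with an edgeR adjusted p of 1.75e-07. By log2 fold change it held rank 3 among the 12160 genes, and GBP4 held rank 7. GBP4 rose to 101 ± 13.1 CPM in IFNγ cells, against 0.224 ± 0.143 CPM in untreated cells, a log2 fold change of 8.74 ± 1.48 (adjusted p 2.60e-07). The untreated level of these genes rests on 7 counts of GBP4 and 21 of GBP5 over 3 libraries. As ratios of counts the increases were 449-fold (95% exact interval 218 to 1120, counting error only) for GBP4 and 1340-fold (876 to 2160) for GBP5. Without untreated replicate 3, which held 13 of the 21 counts, the log2 fold change of GBP5 was 11.19.

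GBP1 and GBP2 rose by nearly the same factor from different starting levels. GBP1 averaged 1190 ± 108 CPM in IFNγ cells and 24.8 ± 1.84 CPM in untreated cells, a log2 fold change of 5.58 ± 0.16 (adjusted p 9.80e-10). GBP2 averaged 327 ± 17.6 CPM in IFNγ cells and 6.80 ± 0.479 CPM in untreated cells, also 5.58 ± 0.12 (adjusted p 3.53e-34). GBP3 had the smallest increase of the 5, with 229 ± 2.14 CPM in IFNγ cells and 33.7 ± 2.88 CPM in untreated cells, a log2 fold change of 2.77 ± 0.055 (adjusted p 6.78e-46). These bulk libraries cannot tell apart more cells expressing a gene and more RNA per cell.

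Irradiated cells responded to IFNγ with the same 5 calls. In the combination against radiation the log2 fold changes were 8.35 ± 0.92 for GBP5, 7.80 ± 1.14 for GBP4, 5.45 ± 0.10 for GBP2, 5.07 ± 0.15 for GBP1 and 2.67 ± 0.055 for GBP3, where 14.5% of all tested genes were called higher. Without irradiated replicate 2 those of GBP5 and GBP4 were 10.22 and 8.46, and without irradiated replicate 3 that of GBP4 was 7.21. The combination against untreated cells, which shares its controls with the first comparison, gave 10.15 ± 1.69 for GBP5, 8.59 ± 1.48 for GBP4, 6.13 ± 0.12 for GBP2, 5.30 ± 0.16 for GBP1 and 2.74 ± 0.055 for GBP3, with 30.9% of genes called higher. Without untreated replicate 3 that of GBP5 was 10.98. GBP2 stood above GBP1 in this comparison, whereas the pair had matched after IFNγ alone.

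**Figure D2:**
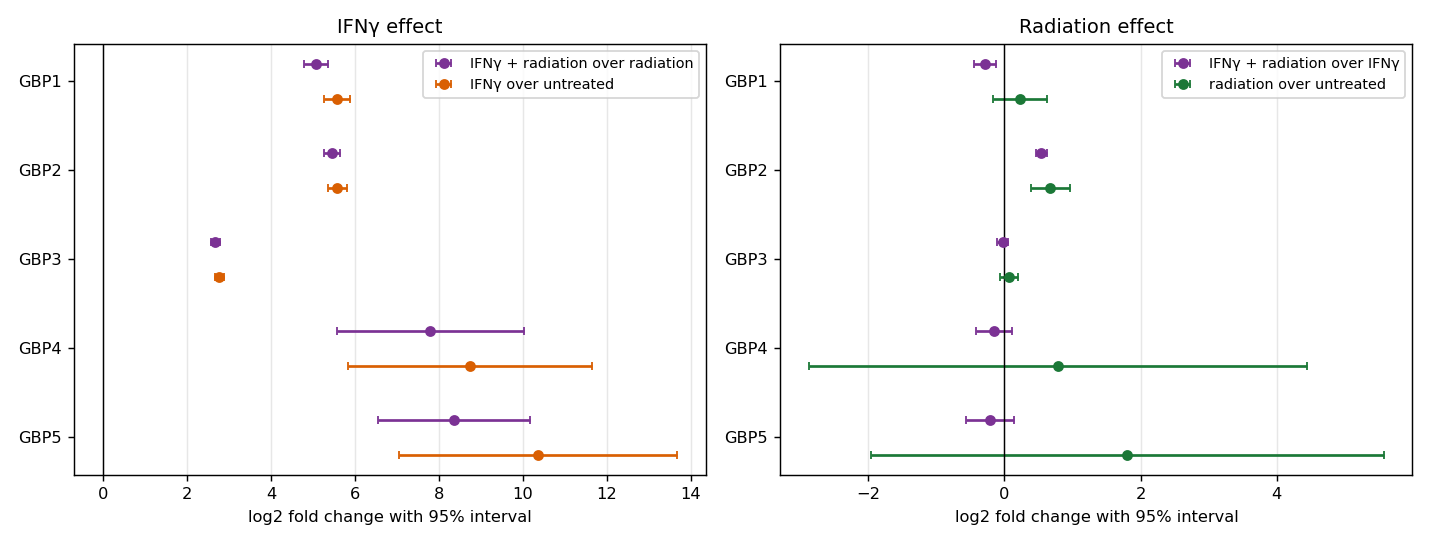
Log2 fold changes of the 5 members with 95% intervals from the edgeR fit, for IFNγ (left) in irradiated and unirradiated cells and for radiation (right) in cells with and without IFNγ. All IFNγ effects lie above 0, whereas for radiation the intervals of GBP2 lie above 0 in both settings and that of GBP1 lies below 0 in IFNγ-treated cells.

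Radiation alone was compared with no treatment to ask what it did without the cytokine. GBP2 was the 1 member of 5 that rose, against 27.9% of all genes called higher (28.2% were called lower). It was also the 1 member whose libraries were higher without overlap, against 30.4% of genes. It averaged 10.9 ± 0.962 CPM in irradiated cells and 6.80 ± 0.479 CPM in untreated cells, a log2 fold change of 0.68 ± 0.15 or 1.60-fold (edgeR adjusted p 0.000166). The call held under each of 18 alternatives, with values from 0.60 to 0.73. The remaining 4 were not called. GBP1 stood at 0.23 (95% interval -0.16 to 0.62, adjusted p 0.359) and GBP3 at 0.070 (-0.064 to 0.20, adjusted p 0.394). GBP1 was called when only these 2 groups were fitted (0.23, adjusted p 0.0150).

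The intervals of GBP4 (0.79, -2.86 to 4.44) and GBP5 (1.80, -1.96 to 5.57) are too wide to show or limit a change. GBP5 had 72 counts in irradiated cells, of which 59 were in replicate 2, and 21 in untreated cells. Without irradiated replicate 2 its log2 fold change was -0.068 (adjusted p 0.983) and its mean in irradiated cells 0.650 CPM, against 2.41 CPM with it. The log2 fold change of GBP4 was 0.13 without this library and 1.38 without irradiated replicate 3, which had 0 counts. A list of 9 other IFNγ-induced genes, most of them with few or no counts in cells without IFNγ, went both ways in that library. IDO1, which starts tryptophan breakdown, had 8 counts there and 1 in each of the other 2 irradiated libraries, and APOL4 had 2 counts there and 0 in the others. CXCL9 had 1 count there and 0 in the others, as did GBP6, which is not on the list. C4B had 0 counts there and 3 and 2 in the others, HLA-DOA had 1 in each, and CXCL11 had 0 there and 0 and 1 in the others. Over the whole list the library held 56 counts, against 39 and 37 in the other irradiated libraries and 47 to 50 in untreated libraries. CIITA, the class II transactivator, supplied 44, 34 and 32 of those counts in irradiated replicates 2, 1 and 3 and 47 to 50 in untreated libraries. Whether these reads and the immune marker reads share a source was not tested.

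In cells that had received IFNγ, radiation moved GBP2 and GBP1 in opposite directions. GBP2 rose to 476 ± 35.4 CPM in combination cells, against 327 ± 17.6 CPM in IFNγ cells (SD, n = 3 each), a log2 fold change of 0.55 ± 0.041 or 1.46-fold (edgeR adjusted p 2.00e-13), with 30.3% of all genes called higher. GBP1 fell to 981 ± 93.6 CPM in combination cells, against 1190 ± 108 CPM in IFNγ cells, a log2 fold change of -0.28 ± 0.084 (adjusted p 0.0185), with 30.4% of genes called lower. These 2 were the members whose libraries did not overlap, against 31.9% of genes higher and 32.2% lower without overlap. The call of GBP2 held in all 18 alternatives (0.49 to 0.60). That of GBP1 ended without IFNγ replicate 1 (-0.19), combination replicate 1 (-0.22) or combination replicate 2 (-0.26), and when only these 2 groups were fitted (-0.27).

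The other 3 members were not called in this comparison. GBP3 stood at -0.024 with a 95% interval of -0.10 to 0.051, the narrowest of the 5. GBP4 stood at -0.15 (-0.41 to 0.12) and GBP5 at -0.21 (-0.56 to 0.14). GBP4 was called lower without combination replicate 3 (-0.30, adjusted p 0.0217).

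Whether radiation altered the response to IFNγ was tested as an interaction: the combination-over-radiation log2 fold change minus the IFNγ-over-untreated one. With edgeR, 0 of 5 members were called, against 2.38% of all genes, and 1 member, GBP1, had an unadjusted p under 0.05 (-0.51 ± 0.22, p 0.0448, adjusted p 0.323). DESeq2 also called 0. GBP2 stood at -0.13 (95% interval -0.43 to 0.17) and GBP3 at -0.094 (-0.25 to 0.059). The intervals of GBP4 (-4.60 to 2.72) and GBP5 (-5.79 to 1.76) span large changes both ways, and without irradiated replicate 2 the interaction of GBP5 was -0.14 in place of -2.01 (-2.84 without untreated replicate 3). That of GBP4 was -0.28 without irradiated replicate 2 and -1.525 without irradiated replicate 3, in place of -0.94.

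Ratios of members within a library do not depend on how libraries are scaled. GBP2 had 49.3, 49.1 and 47.5 counts per 100 GBP1 counts in combination libraries, against 26.2, 27.9 and 28.3 in IFNγ libraries. The means were 48.6 ± 1.02 in combination cells and 27.5 ± 1.14 in IFNγ cells. The same ratio was 34.0, 32.5 and 47.1 in irradiated libraries and 27.1, 27.4 and 27.6 in untreated libraries. In both pairs all irradiated libraries lay above all unirradiated ones (exact two-sided permutation p 0.1 for each, the smallest that 3 against 3 allows, and 0.2 after adjustment over 6 ratio tests). IFNγ alone thus left the proportion of GBP2 to GBP1 counts near its untreated value, while both irradiated groups had more GBP2 for each GBP1 count.

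The ratio of GBP3 to GBP1 also separated with IFNγ, at 23.0 ± 1.78 GBP3 counts per 100 GBP1 counts in combination cells and 19.3 ± 1.58 in IFNγ cells (exact two-sided permutation p 0.1, adjusted 0.2). Without IFNγ it was 122 ± 14.3 in irradiated cells and 137 ± 21.5 in untreated cells (exact p 0.5, adjusted 0.6). GBP5 had 79.3 ± 7.04 counts per 100 GBP1 counts in combination cells and 75.7 ± 6.22 in IFNγ cells (exact p 0.6, adjusted 0.6).

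The ratio of GBP4 to GBP5 was nearly the same in every library with IFNγ. There were 11.8, 11.7 and 11.5 GBP4 counts per 100 GBP5 counts in combination libraries and 10.7, 11.6 and 11.2 in IFNγ libraries (exact two-sided permutation p 0.2, adjusted 0.3). GBP5 itself varied more, with a coefficient of variation of 18.6% in combination and 16.8% in IFNγ libraries. GBP4 varied by 16.9% and 13% in those groups, GBP1 by 9.54% and 9.08%, GBP2 by 7.43% and 5.40%, and GBP3 by 4.69% and 0.934%. IFNγ replicate 1 was the highest of its group for GBP1, GBP2, GBP4 and GBP5, and combination replicate 3 was the highest of its group for all 5 members. Those 2 libraries also had the most counts of that list of 9 genes in their groups, 4397 in combination replicate 3 and 4909 in IFNγ replicate 1. The part of that list in the spread of the GBP genes was not tested.

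**Figure D3:**
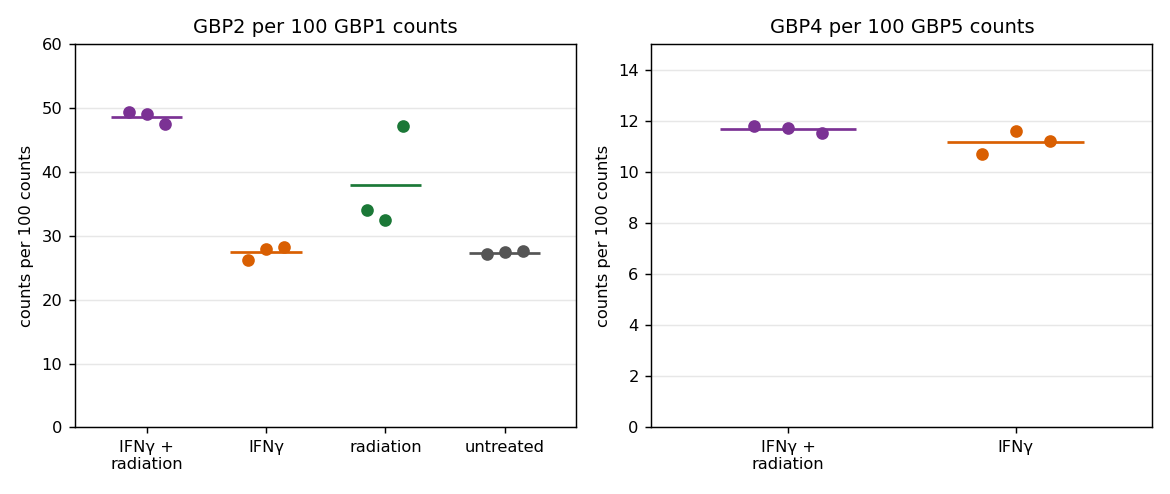
Counts of GBP2 per 100 counts of GBP1 (left, 4 groups) and of GBP4 per 100 counts of GBP5 (right, the 2 groups with IFNγ), 1 point per library with a line at the group mean. The combination libraries sit between 47.5 and 49.3 on the left, above all IFNγ libraries, whereas on the right the 6 libraries lie between 10.7 and 11.8.

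Together the 5 genes supplied 2555 ± 296 CPM in combination cells, 2751 ± 286 CPM in IFNγ cells, 78.2 ± 8.31 CPM in irradiated cells and 66.2 ± 2.28 CPM in untreated cells. The family's make-up differed between groups as well as its total. GBP3 supplied 8.85% ± 0.795 of these counts in combination cells, 8.36% ± 0.787 in IFNγ cells, 45.2% ± 2.66 in irradiated cells and 50.8% ± 3.27 in untreated cells. GBP5 supplied 30.5% ± 2.05 in combination cells, 32.8% ± 2.10 in IFNγ cells, 2.84% ± 3.42 in irradiated cells and 1.03% ± 0.847 in untreated cells. The irradiated mean rests on replicate 2, with 6.75%, against 1.36% and 0.402% in the other irradiated libraries, and untreated libraries lay between 0.295% and 1.95%. GBP2 supplied 18.7% ± 0.777 in combination cells and 11.9% ± 0.700 in IFNγ cells, while GBP1 supplied 38.4% ± 0.816 and 43.3% ± 0.841 in those groups.

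**Figure D4:**
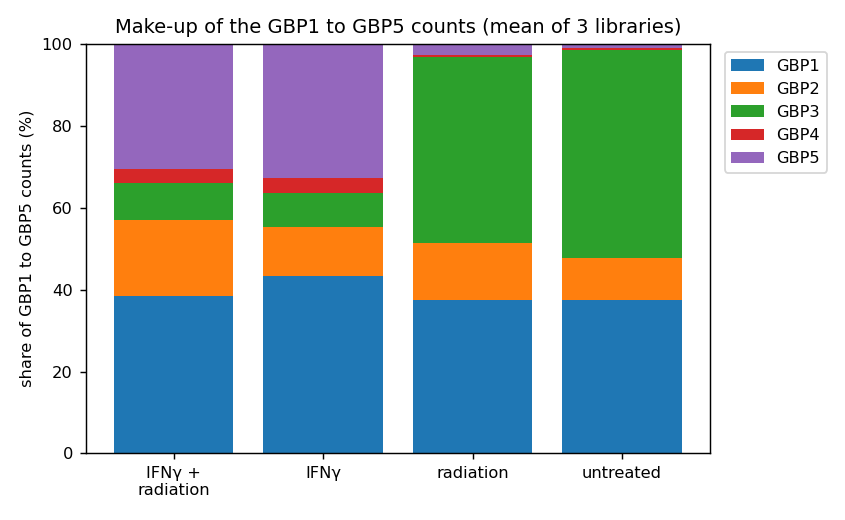
Mean share of each member in the summed GBP1 to GBP5 counts, in percent, for the 4 groups (3 libraries each). GBP3 is the largest part without IFNγ (45.2% in irradiated and 50.8% in untreated cells), and GBP1 and GBP5 make up most of the counts with it.

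Levels of different genes were compared per kilobase of annotated exon (GENCODE 29, union of all transcripts). In IFNγ cells the order was GBP1 at 238 ± 21.7 CPM per kilobase, GBP5 at 111 ± 18.6, GBP3 at 53.2 ± 0.497, GBP2 at 52.0 ± 2.81 and GBP4 at 16.5 ± 2.14. GBP3 and GBP2 did not differ beyond their spread there, and with the longest transcript as length GBP2 (88.6) stood above GBP3 (62.2). In combination cells GBP2, at 75.9 ± 5.64, stood above GBP3, at 52.3 ± 2.46, with GBP1 at 197 ± 18.7, GBP5 at 96.0 ± 17.9 and GBP4 at 14.9 ± 2.51. Without IFNγ GBP3 led, with 8.21 ± 0.549 CPM per kilobase in irradiated cells and 7.84 ± 0.670 in untreated cells. GBP1 followed with 5.86 ± 0.741 in irradiated cells and 4.98 ± 0.368 in untreated cells, and GBP2 with 1.74 ± 0.153 and 1.08 ± 0.0763 in those groups. GBP5, with 0.296 ± 0.377 in irradiated and 0.0848 ± 0.0708 in untreated cells, and GBP4, with 0.0657 ± 0.0591 and 0.0366 ± 0.0233, came last and overlapped in both groups. The irradiated level of GBP5 was 0.728 CPM per kilobase in replicate 2 and 0.124 and 0.0358 in replicates 1 and 3. With the longest transcript as length, GBP1 (9.64) stood beside GBP3 (9.59) in irradiated cells, and GBP3 (9.15) stayed above GBP1 (8.185) in untreated cells.

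Reads of related genes can be assigned to the wrong member. Reads had 50 cycles, and 10.2% of the 50-base words in GBP2 transcripts also occur in transcripts of another family gene, mostly GBP7 (573 words), which overlaps GBP2 in the annotation. The share was 9.62% for GBP1, mostly with the pseudogene GBP1P1 (332 words) and GBP3 (171 words), 4.40% for GBP3, 0.309% for GBP4 and 0% for GBP5. The counting tool's handling of such reads is not given in the sources used here.

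The other 2 family members stayed rare. GBP6 had 9, 16 and 23 counts in combination libraries, 23, 9 and 12 in IFNγ libraries, 1 over the irradiated libraries and 0 in untreated libraries. It was at least 14.8-fold higher in IFNγ than in untreated cells, with untreated cells placed at a floor of 3 counts over the group. GBP7 had 18 counts over the combination libraries, 26 over the IFNγ libraries, 0 over the irradiated libraries and 1 over the untreated libraries. Its ratio of IFNγ to untreated cells was 26.3 (95% exact interval 4.32 to 1080). With 0.844 CPM in IFNγ cells, GBP7 was present at a small fraction of the level of GBP2.

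Among related GTPases, 3 of 7 tested rose with IFNγ and 2 fell (median log2 fold change 0.065). The shares over all tested genes were 15.0% higher and 14.1% lower. Besides GBP6, the antiviral dynamin-like proteins MX2 (log2 fold change 4.07 ± 0.55) and MX1 (3.31 ± 0.42) rose. The atlastin ATL3, which shapes the endoplasmic reticulum, fell by 0.13 ± 0.049 and IRGQ by 0.23 ± 0.080 on the log2 scale. Both of these calls ended in DESeq2 and without untreated replicate 2 (-0.11 and -0.21), untreated replicate 3 (-0.11 and -0.23) or IFNγ replicate 2 (-0.11 and -0.18). ATL1 (-0.058) and ATL2 (0.065) were not called. After radiation alone IRGQ (0.53 ± 0.073) was the 1 gene of 7 that rose, and 0 fell, against 27.9% of all genes called higher and 28.2% lower. In combination over IFNγ cells MX2 (0.64 ± 0.18), MX1 (0.55 ± 0.19) and IRGQ (0.35 ± 0.079) rose, as GBP2 did, and ATL2 (-0.21 ± 0.054) fell. There 30.3% of all genes were called higher and 30.4% lower. The calls of the antiviral pair ended without combination replicate 3 for MX2 (0.36) and without IFNγ replicate 2 or 3 for MX1 (0.50 and 0.48).

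Transcription factors of interferon and NF-κB signalling were tested in 8 cases, of which 7 rose with IFNγ and 0 fell. The shares called over all tested genes were 15.0% higher and 14.1% lower. These 8 factors had a median log2 fold change of 2.75, against -0.005 over all genes. Among them BATF2 (5.49 ± 0.32), IRF1 (4.81 ± 0.24), IRF9 (3.02 ± 0.10) and STAT2 (2.49 ± 0.074) rose. IRF2 (0.94 ± 0.071) and NFKB1 (0.17 ± 0.049) rose less, and RELA (0.088 ± 0.049) was not called. The call of NFKB1 ended with library totals in place of TMM (0.11). After radiation alone STAT2 (0.80 ± 0.083) and IRF9 (0.67 ± 0.12) rose and NFKB1 (-0.40 ± 0.053) fell, while IRF1 (0.34 ± 0.32) was not called. In combination over IFNγ cells STAT2 (0.55 ± 0.049) rose, IRF9 (-0.22 ± 0.057) and NFKB1 (-0.59 ± 0.051) fell, and IRF1 (-0.13 ± 0.097) was not called. IRF9 had a called interaction (-0.89 ± 0.13, edgeR adjusted p 7.38e-06). STAT2 thus had calls in the direction of GBP2 in both radiation comparisons, where 27.9% and 30.3% of all genes were called higher. Other listed genes did too, among them IRGQ, CASP1, SQSTM1 and SHARPIN, and a link between STAT2 and GBP2 was not tested. IRF1 was called in neither comparison, though it was when only irradiated and untreated libraries were fitted (0.34) and without combination replicate 3 (-0.23).

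Proteins that act at GBP-coated bacteria or inflammasomes rose with IFNγ in 11 of 14 tested cases, and 0 fell (median log2 fold change 1.195). Over all tested genes 15.0% were called higher with IFNγ and 14.1% lower. Of the 16 genes listed, CASP5 and PYCARD had too few counts to be tested. CASP5 had 0 counts in every group. PYCARD averaged 0.316 CPM in combination cells, 0.290 in IFNγ cells, 0.234 in irradiated cells and 0.0626 in untreated cells. APOL3, which lyses bacterial membranes (6.06 ± 0.28), the DNA sensor AIM2 (4.41 ± 0.15) and caspase-1, CASP1 (3.47 ± 0.15), rose most. SHARPIN (0.057 ± 0.10) and SQSTM1 (-0.058 ± 0.037), with the smallest values, were not called. SQSTM1 was called lower with library totals (-0.12). In combination over IFNγ cells 7 of 14 rose and 5 fell, where 30.3% of all genes were called higher and 30.4% lower. There the autophagy receptor SQSTM1 (0.62 ± 0.036), CASP1 (0.56 ± 0.063) and SHARPIN (0.33 ± 0.095) rose, AIM2 (-0.24 ± 0.055) fell, and APOL3 (0.0064 ± 0.059) was not called. After radiation alone SQSTM1 (0.60 ± 0.036) and SHARPIN (0.35 ± 0.097) rose as well. Of these 14 genes, 4 had a called interaction, all lower, against 2.38% of all genes, where the GBP genes had 0. Among them were CASP1 (-0.85 ± 0.18, adjusted p 0.00150) and APOL3 (-1.52 ± 0.33, adjusted p 0.00164). Both had risen with radiation alone, CASP1 by 1.41 ± 0.16 and APOL3 by 1.53 ± 0.33 on the log2 scale. Whether the interactions of these genes and of the GBP genes differ from each other was not tested.

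Of 6 enzymes that attach the lipid anchor of GBP1, GBP2 and GBP5 or process the anchored end, 1 rose with IFNγ, against 15.0% of all genes (median log2 fold change 0.10). FNTA, the subunit shared by farnesyl and geranylgeranyl transferases, rose by 0.20 ± 0.059, a call that ended without IFNγ replicate 1 (0.15), with library totals (0.14) and in DESeq2 (adjusted p 0.0515). FNTB (0.17 ± 0.079), PGGT1B (0.11 ± 0.066), RCE1 (0.098 ± 0.11), ICMT (0.080 ± 0.037) and ZMPSTE24 (-0.022 ± 0.046) were not called. FNTB was called without untreated replicate 2 (0.27). After radiation alone FNTA (0.32 ± 0.058) rose and FNTB (-0.37 ± 0.086) and ICMT (-0.45 ± 0.039) fell. The shares over all genes were 27.9% higher and 28.2% lower. In combination over IFNγ cells FNTB (-0.44 ± 0.082), ICMT (-0.50 ± 0.038) and ZMPSTE24 (-0.24 ± 0.047) fell and 0 rose. There 30.4% of all genes were called lower and 30.3% higher.

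FURIN, the protease that GBP2 and GBP5 restrain, rose with IFNγ by 0.18 ± 0.039 (adjusted p 0.000189). The kinase PIM1, which phosphorylates GBP1, stood at 0.032 ± 0.079 with IFNγ and fell with radiation alone (-0.72 ± 0.089) and in combination over IFNγ cells (-0.53 ± 0.085). SFN, the 14-3-3 protein that binds phosphorylated GBP1, was not called with IFNγ (-0.71 ± 0.44). It rose in combination over IFNγ cells (1.13 ± 0.42, edgeR adjusted p 0.0117), a call that ended in DESeq2 and without combination replicate 3 (0.91). The rise rests on few counts, 10, 13 and 18 in combination libraries and 7, 6 and 5 in IFNγ libraries. FURIN fell by 0.10 ± 0.040 with radiation alone and by 0.090 ± 0.038 in combination over IFNγ cells. The first of these calls ended in DESeq2, with library totals and without untreated replicate 1 (-0.080), untreated replicate 2 (-0.10) or irradiated replicate 2 (-0.091). The other ended in DESeq2, with RLE scaling or library totals, and without IFNγ replicate 1 (-0.070) or 2 (-0.086) or combination replicate 1 (-0.064) or 2 (-0.078).

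The profile over the 12 libraries that lay closest to the mean of the 5 members was that of IRF1 (Pearson r 0.9982, on log2 CPM). Next came ICAM1, a cell adhesion receptor (0.9975), BTN3A1, a butyrophilin seen by γδ T cells (0.9975), PARP12, an ADP-ribosyltransferase (0.9972), IDO1 (0.9971) and the antiviral SAMD9L (0.9969). Taken singly, GBP1 was closest to IRF1 (0.9993), GBP3 to the immunoproteasome subunit PSMB9 (0.9990), GBP4 to XAF1 (0.9962) and GBP5 to HLA-DMB, a chain of the class II peptide loader (0.9960). IRF1 averaged 177 ± 19.8 CPM in combination cells, 194 ± 23.2 in IFNγ cells, 8.77 ± 1.43 in irradiated cells and 6.90 ± 0.0883 in untreated cells. The libraries fall into those with and without IFNγ, which sets most of each coefficient, so these values describe likeness only.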

How the data were processed

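Per the labels' protocols, ribosomal RNA was removed, libraries were stranded and reads were paired. The authors deposited raw counts per gene for 12 libraries in 1 table. The submitters' processing notes list TopHat2 2.0.13, FastQC 0.11.3, Cuffdiff 2.2.1 and Cufflinks with hg19. No source used here names the counting program, strand setting or annotation. The first 4 column names are shifted by 1 place, so columns were read by content. Deposited counts were filtered with filterByExpr, scaled by TMM and fitted with edgeR 4.0.16 (R 4.3.3) in 1 quasi-likelihood model of all 12 libraries with robust dispersions. Benjamini-Hochberg adjustment ran over 12160 genes, with calls at an adjusted p under 0.05. Standard errors and 95% intervals come from the model's information matrix and posterior quasi-dispersion, with normal limits. The fit was tested on simulated data, in which no changed gene was drawn with untreated counts as low as those of GBP4 and GBP5. Replicate pairs had chi-square values of 1.13 to 2.67 per degree of freedom (genes with 20 or more counts), so no column repeats another of its group. Values near 1 do not tell separate cultures from repeat libraries of the same culture. Alternatives were RLE scaling, library totals, no filter, DESeq2 1.42.0, fits of the 2 groups compared, a replicate block and leaving out each library. Likeness used a prior count of 2. Named genes are the 5 members, all genes of lists with 8 or fewer tested members (otherwise the 3 largest and 2 smallest absolute IFNγ effects) and the genes most like the members. Both radiation contrasts and the interaction are given for their called genes, with IRF1 and APOL3, and marker genes are given as checks. CASP5 and PYCARD are named as listed genes that were not tested. The values of 1 gene that this rule names are not reported here. Members and lists were chosen with earlier results of these data known. RefSeq windows and GENCODE lengths are on GRCh38 and were not joined to the files by coordinates.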

Additional observations from a re-analysis of the deposited data

How the results depend on the processing

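Of 534 alternative log2 fold changes of the 5 members, 525 kept direction and call, 4 lost the call, 2 gained it and 3 changed sign. The sign changes were GBP5 in irradiated against untreated cells without irradiated replicate 2 (-0.068 to 2.63 over single libraries left out) and GBP3 in combination against IFNγ cells with library totals (0.011) and without combination replicate 2 (-0.058 to 0.00995 over single libraries left out). Members called higher in irradiated against untreated cells numbered 2 when only those groups were fitted. Members called lower in combination against IFNγ cells numbered 0 in that kind of fit and 0 to 2 when single libraries were left out. All other member counts kept within 1.5 times. The replicate block changed 0 member calls (5 higher after IFNγ, 1 higher after radiation). Deviations of same-numbered libraries correlated between -0.0711 and 0.0537 in 18 pairs, so the check gave no sign that the numbers pair the samples. Some replicates differed by little more than counting error, and there the check could miss a pairing.

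Of related GTPases, 1 was called lower after IFNγ without the filter or with 2 groups fitted, 0 in DESeq2, and 0 to 2 without single libraries. After radiation 0 to 1 were lower without single libraries. Prenylation genes called higher after IFNγ numbered 0 with library totals or DESeq2 and 0 to 2 without single libraries, and in combination against IFNγ cells 1 with RLE scaling, library totals or 2 groups fitted and 0 to 1 without single libraries. Partner genes called lower after IFNγ numbered 2 with library totals, and transcription factors called higher after radiation 5 with 2 groups fitted. Uncalled values changed sign after IFNγ for SHARPIN (-0.00033 with library totals, -0.065 to 0.14 without single libraries), PIM1 (-0.026 with library totals), ZMPSTE24 (-0.068 to 0.017 without single libraries) and ATL1 (-0.15 to 0.090), and in combination against IFNγ cells for APOL3 (-0.0050 without the filter, -0.047 to 0.095 without single libraries). The cause was not tested. Counts of 7 and 21 limit the untreated levels of GBP4 and GBP5.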
